A study of Mus musculus with 6 samples.

Results

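Histone genes were examined for DNA methylation in GS cells, which are cultured mouse spermatogonia that include spermatogonial stem cells. Members were the genes of the deposited table whose symbol starts with H1f, H2ac, H2bc, H3c or H4c followed by a digit, or with the older prefixes Hist1h to Hist4h. This rule found 59 of 31751 genes, all under the newer symbols. They were 10 linker histone H1 genes, 11 H2A genes, 16 H2B genes, 10 H3 genes and 12 H4 genes. CpG sites were used if they had at least 10 reads in all 6 samples and lay within 5000 bp of the transcription start site (TSS) that the table gave as closest. Such sites were left in 34 of the 59 histone genes and 19731 of all genes. The histone genes held 449 of the 472734 sites, and the positions of measured sites are given in mm39.

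The study froze GS cells for 6 months and compared cells that were kept on the International Space Station with cells that were kept on Earth. Reduced representation bisulfite sequencing (RRBS) was done on 3 samples of each kind, here called Space and Ground, at day 14 of culture after thawing, when the cells had been passaged 2 times. RRBS reads CpG-rich fragments after bisulfite treatment, which converts unmethylated cytosines, so each read of a site counts as methylated or unmethylated. Both groups carried the label genotype DBA/Tg14(act-EGFP-OsbY01), an EGFP transgene driven by actin regulatory sequence. Both came from an established stock of GS cells derived from mice of this line, and both were grown with GDNF and FGF2 on mouse embryonic fibroblasts. The labels do not say whether the 3 samples of a group came from separate vials or cultures, so the spread between them may be technical. Neither the age nor the number of donor mice is given in the sources used here.

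Histones are the proteins around which DNA is wound. H2A, H2B, H3 and H4 form the core of the nucleosome, and H1 binds the linker DNA between nucleosomes. Most of their genes lie in clusters and are transcribed during DNA replication, whereas male germ cells also use variants such as TH2A, TH2B, H1T2 and HILS1, which take the place of the usual histones in spermatogenesis. The oocyte has its own linker histone. DNA methylation at a CpG-rich promoter generally accompanies a silent gene.

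Upstream sequences are shown for the genes on which the results turn. These are the TH2B gene *H2bc1* and the TH2A gene *H2ac1*, the linker histone genes *H1f7* and *H1f8*, whose sites were methylated in whole or in part, and *H1f10*, the gene with the most sites, whose level was low. Each is the 250 bases before the RefSeq start on the strand of the gene, with CG in capitals. They are from GRCm38.p6, which is not the build of the methylation table, so measured sites were not placed on them. *H2bc1* is chr13:23934157-23934406 on the minus strand and *H2ac1* is chr13:23934187-23934436 on the plus strand. *H1f7* is chr15:98257308-98257557 on the minus strand, *H1f8* is chr6:115944681-115944930 on the plus strand, and *H1f10* is chr6:87981483-87981732 on the minus strand.
H2bc1: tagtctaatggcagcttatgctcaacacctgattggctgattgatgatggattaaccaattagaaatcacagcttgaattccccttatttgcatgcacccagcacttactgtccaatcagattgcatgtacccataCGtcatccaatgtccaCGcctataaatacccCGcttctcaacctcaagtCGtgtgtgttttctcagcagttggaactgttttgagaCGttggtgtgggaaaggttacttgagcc
H2ac1: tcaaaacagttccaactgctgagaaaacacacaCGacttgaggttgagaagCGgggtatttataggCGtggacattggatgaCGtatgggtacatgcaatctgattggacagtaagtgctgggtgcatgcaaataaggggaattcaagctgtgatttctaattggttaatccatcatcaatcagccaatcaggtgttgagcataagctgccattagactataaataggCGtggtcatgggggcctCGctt
H1f7: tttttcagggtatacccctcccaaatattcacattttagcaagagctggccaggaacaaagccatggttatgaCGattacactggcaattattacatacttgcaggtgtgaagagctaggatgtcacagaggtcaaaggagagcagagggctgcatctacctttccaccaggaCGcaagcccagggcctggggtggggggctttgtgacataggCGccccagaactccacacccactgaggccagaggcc
H1f8: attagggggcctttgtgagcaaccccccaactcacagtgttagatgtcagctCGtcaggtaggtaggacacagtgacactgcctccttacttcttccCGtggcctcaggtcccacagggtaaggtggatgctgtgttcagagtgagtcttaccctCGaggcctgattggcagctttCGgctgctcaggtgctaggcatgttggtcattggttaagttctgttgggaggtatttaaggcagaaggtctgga
H1f10: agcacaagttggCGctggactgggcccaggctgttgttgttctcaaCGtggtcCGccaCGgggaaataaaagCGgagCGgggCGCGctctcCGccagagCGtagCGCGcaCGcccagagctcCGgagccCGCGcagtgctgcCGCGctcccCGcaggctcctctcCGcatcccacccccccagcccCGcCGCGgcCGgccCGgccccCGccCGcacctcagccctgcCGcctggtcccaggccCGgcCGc

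The *H2bc1* and *H2ac1* sequences overlap by 220 bases on opposite strands, since these genes start head to head. *H1f10* held 30 CG in 250 bases, whereas *H2ac1* held 6, *H2bc1* held 5, *H1f8* held 4 and *H1f7* held 3. The median over the 50 histone genes with a RefSeq promoter of the same symbol was 9.5, and over all 27025 promoters it was 5. Letters known from histone promoters were searched on both strands, where the 4 motifs could overlap each other. CCAAT was found in 38 of the 50 histone promoters (76%) and in 34.2% of all promoters. TATAAA was found in 24 (48%, all promoters 12.9%). The octamer ATTTGCAT was found in 10 (20%, all promoters 1.59%), which were 4 of 10 H2A and 6 of 12 H2B genes. AAACACA, described for H1 promoters, was found in 7 (14%, all promoters 6.34%), of which 4 were H1 genes. *H2bc1* and *H2ac1* held all 4 motifs, and *H1f7* and *H1f10* held none. A match is a description of the letters only.

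The reads summed over all sites of the table ranged from 28535973 to 33743845 per sample, and those over histone sites from 12076 to 15141. Each histone site had 10 to 88 reads in a sample, so depth limits what can be seen at single genes. The upper limits given for levels of 0 are what 3 methylated reads would make at the gene's most covered site in that sample, since 1 read can cover several sites. They cover counting error only, since no molecular identifiers are described. Of 10 germline genes whose promoters are usually methylated in somatic cells, 8 had a used site within 1000 bp of the TSS. All 8, among them *Ddx4* and *Dazl*, had levels of 0.74% to 3.68%. Of 6 genes used by the feeder fibroblasts, only 2 had a used site within 1000 bp, so their levels are given within 5000 bp. The cell surface gene *Thy1* had 48.8% ± 0.385 (SD, n = 3) in Space and 59.6% ± 4.03 (SD, n = 3) in Ground. Its 7 sites all lay over 1000 bp from the TSS, and its groups did not overlap. For *Thy1*, the quasi-binomial test moderated by limma gave an unadjusted p of 0.0288 and adjusted p = 0.906. Of the other 5, *Pdgfrb* and *Col1a2* were higher in Space by 1.04 and 1.2 percentage points, *Pdgfra* and *Col3a1* differed by -0.63 and -4.4, and *Col1a1* was 0% in all samples, each with overlap. The mean of the 6 gene levels, each gene weighted equally, was 31.4% to 34% in Space and 32.9% to 36.8% in Ground. Use of these genes by the GS cells and the part of feeder DNA in the histone values were not tested.

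Most histone genes were nearly unmethylated in both groups. The methylation level of a gene is the percent of methylated reads among the reads summed over its sites. The mean level of the 6 samples was under 5% in 30 of the 34 genes, and under 5% in 65.3% of all 19731 genes. *H3c4* lay between 5% and 10%. The other 3 genes lay above 10%, and they were *H1f7*, *H1f8* and *H1f9*, which encode linker histones of the germline. The median level was 1.93% in histone genes and 2.48% in all genes. Of the 449 sites, 421 (93.8%) had a mean level under 5%, close to the 92.7% of all 472734 sites. No methylated read in any sample was found at 63 (14%), against 11.7% of all sites. All 14 sites with a mean level of 10% or more belonged to the same 3 genes.

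**Figure D1:**
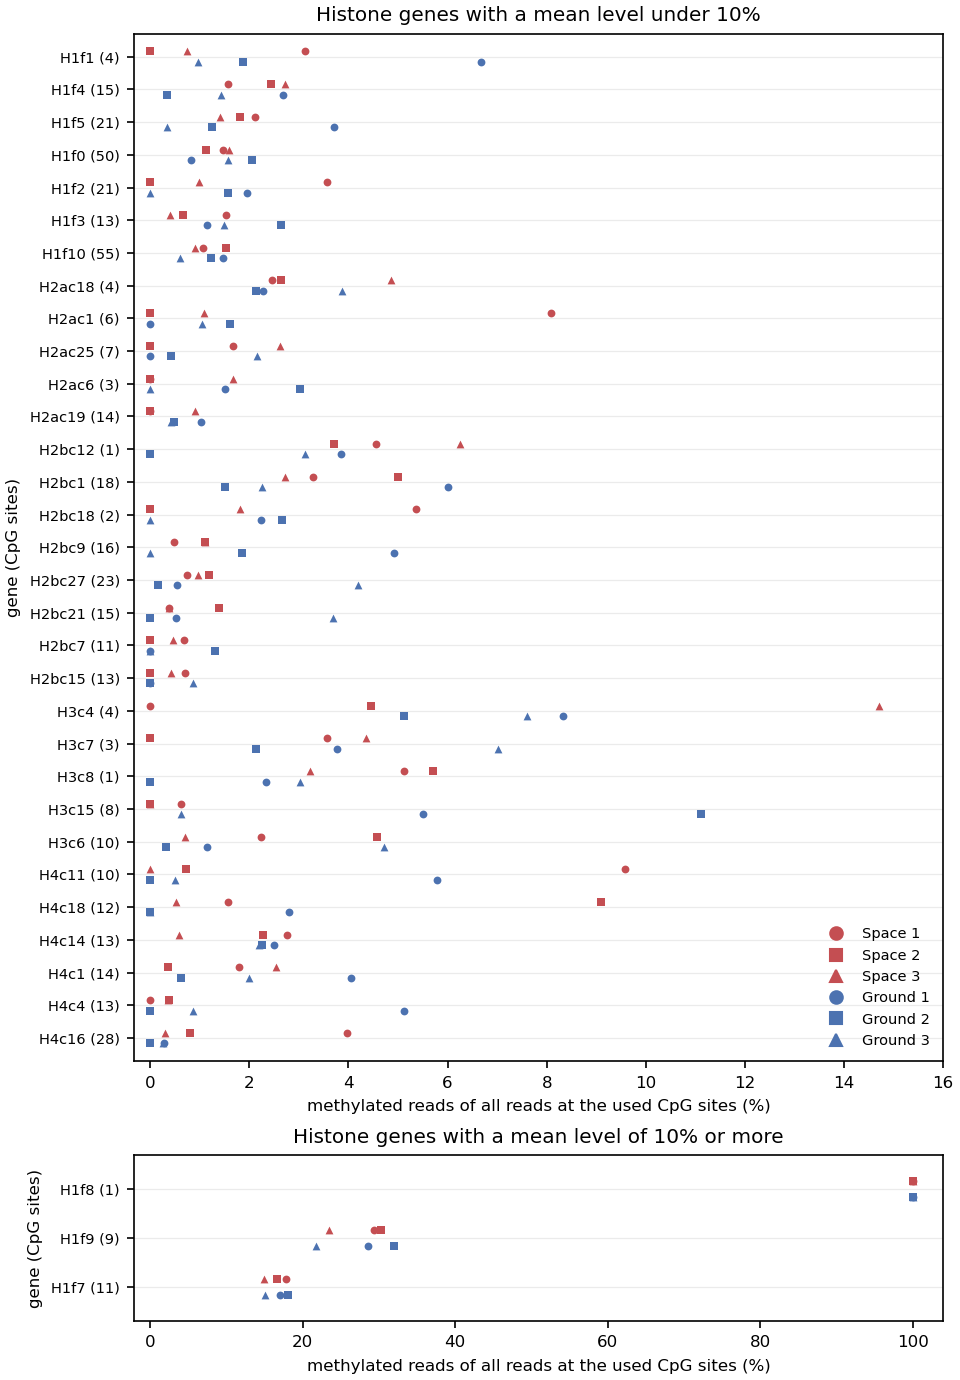
Methylation level of each histone gene in each sample (x axis, percent of methylated reads) by gene (y axis, with the number of CpG sites), with Space samples in red and Ground samples in blue. In the upper panel the 31 genes with a mean level under 10% stay below 15% in every sample, and in the lower panel H1f7, H1f9 and H1f8 lie near 17%, 28% and 100% in both groups.

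No difference between Space and Ground samples passed the test at any histone gene. Of 33 histone genes tested with the quasi-binomial test, 0 had an adjusted p under 0.05, and the smallest was 0.906. An unadjusted p under 0.05 was found in 2 histone genes, against 1062 (5.4%) of 19663 genes tested. The same counts of 0 and 2 were found with edgeR's quasi-likelihood test. Among all genes, 0 (0%) had an adjusted p under 0.05. Every Space sample was above every Ground sample in 2 histone genes, a pattern found in 5.61% of all genes, and below in 0, against 3.79% of all genes. The level was higher in Space in 17 histone genes (50%), lower in 16 and equal in 1. Of all 19731 genes, 10661 (54%) were higher and 9000 lower in Space. At single sites, no histone site differed by over 20 percentage points, where 0.0326% of all sites were higher and 0.0214% lower in Space by this measure. Of 26 histone sites with levels of 5% to 95%, 0 had an adjusted p under 0.05 (quasi-binomial test) and 0 an unadjusted p under 0.05, against 5161 (5.61%) of 92042 sites tested. Among these 26 sites, every Space sample was above every Ground sample at 3 and below at 2, against 4.76% and 4.19% of all 23256 such sites within 5000 bp. They were 1 site of *H1f7*, 3 of *H1f9* and 1 of *H2bc1*, and neighbouring sites can share reads.

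The levels of the reads summed by histone type overlapped between the groups. The 7 H1 genes other than the germline variants had levels of 1.62%, 1.3% and 1.35% in Space samples 1 to 3 and 1.74%, 1.58% and 0.973% in Ground samples 1 to 3. The 4 H2A genes without TH2A had 1.36% ± 0.992 (SD, n = 3) in Space and 1.23% ± 0.365 (SD, n = 3) in Ground. Both types were therefore low and overlapped between the groups. The 7 H2B genes without TH2B had 0.921% ± 0.0723 (SD, n = 3) and 1.47% ± 0.874 (SD, n = 3), in the same order. H3 genes had 2.93% ± 1.14 (SD, n = 3) and 3.95% ± 0.608 (SD, n = 3), and the 6 H4 genes had 1.81% ± 1.1 (SD, n = 3) and 1.58% ± 1.14 (SD, n = 3). The H4 values include 13 sites assigned to *H4c4* that are spaced as sites of an H2B gene, as given below. The groups overlapped in each type, and H3 had the highest mean level among the core histones in both. As the members were chosen with results known, these sums were not tested.

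**Figure D2:**
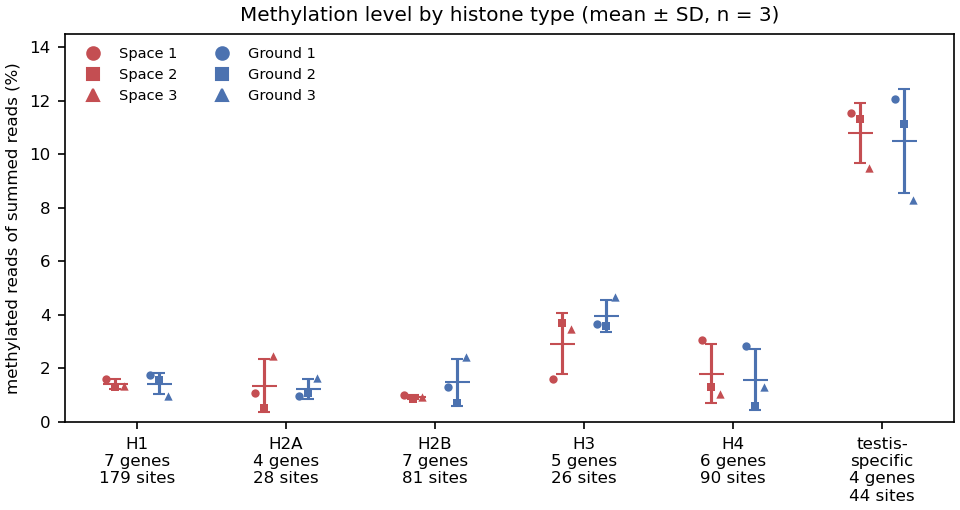
Methylation level of the reads summed by histone type (y axis, percent) in each sample, with H1, H2A and H2B shown without the germline variants, the mean as a bar and the SD over 3 samples as whiskers. The H1 to H4 sets lie under 5% in every sample, whereas the 4 testis-specific genes lie between 8.3% and 12.1%, and Space and Ground overlap in all 6 sets.

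By position in the genome, 20 of the genes with sites lay in the large cluster on chromosome 13, 6 in the cluster on chromosome 3 and 2 in that on chromosome 11 (mm39). The cluster on chromosome 13 had summed levels of 2.02% ± 0.29 (SD, n = 3) in Space and 2.01% ± 1.13 (SD, n = 3) in Ground. In the cluster on chromosome 3, the levels were 1.75%, 1.26% and 1.17% in Space samples 1 to 3 and 2.18%, 2.49% and 2.01% in Ground samples 1 to 3, which did not overlap. This rested on *H3c15*. Without it, the values were 1.51% ± 0.329 (SD, n = 3) and 1.79% ± 0.377 (SD, n = 3), and the groups overlapped.

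The replication-dependent H1 genes, *H1f1* to *H1f5*, encode the linker histones of dividing cells and lie in the cluster on chromosome 13. Their levels were 1.31% to 2.23%. The lowest was *H1f3*, whose 13 sites all lay 1915 to 2814 bp downstream of the TSS, so its promoter was not measured. *H1f1* (ENSMUSG00000049539, 4 sites at chr13:23948077-23948881) had 3.12%, 0% and 0.741% in Space and 6.67%, 1.87% and 0.962% in Ground. The 0 of Space 2 allows a level of up to 5.88%. Ground 1 stood above the other samples, and the groups overlapped. The difference of -1.88 percentage points was one of the 2 largest in that direction, with adjusted p = 0.969 (quasi-binomial test), and it was -0.13 without Ground 1. *H1f10* (ENSMUSG00000044927), which encodes H1.10, a linker histone made outside replication, had 55 sites at chr6:87958277-87958910, the most of all members. Its levels were 1.06%, 1.54% and 0.902% in Space and 1.46%, 1.23% and 0.598% in Ground. Each of these values rests on 1382 to 2008 read counts summed over the 55 sites, where 1 read can count at several sites. The most covered site had 53 to 74 reads per sample. *H1f0*, the H1.0 gene of non-dividing cells, had 50 sites and 1.4% ± 0.238 (SD, n = 3) in Space and 1.48% ± 0.62 (SD, n = 3) in Ground.

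H2A genes had used sites in 5 of 11 members and H2B genes in 8 of 16. *H2ac18* (ENSMUSG00000064220, 4 sites at chr3:96152455-96152598) had the highest H2A level, with 2.45%, 2.63% and 4.86% in Space and 2.27%, 2.13% and 3.88% in Ground. *H2ac19* (ENSMUSG00000063954, 14 sites at chr3:96147621-96147716) was the lowest, with 0%, 0% and 0.893% against 1.02%, 0.476% and 0.424%. The limits that its counts of 0 allow are 13.6% in Space 1 and 18.8% in Space 2. Both are replication H2A genes and near copies of each other, and the groups overlapped in each. Of the H2B genes, *H2bc12* had the highest level at 1 site (chr13:22220938), with 4.55%, 3.7% and 6.25% in Space and 3.85%, 0% and 3.12% in Ground. Only 22 to 32 reads covered it, and the 0 of Ground 2 allows up to 12%. *H2bc27* had the most H2B sites, 23, with 0.743%, 1.18% and 0.971% in Space and 0.543%, 0.156% and 4.19% in Ground. Here Ground 3 stood apart, and the difference of -0.67 percentage points became 0.62 without it.

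H3 genes had used sites in 5 of 10 members. *H3c15* (ENSMUSG00000081058, 8 sites at chr3:96146421-96146485, 42 bp before to 22 bp after the TSS) had the largest difference of all histone genes. Its levels were 0.625%, 0% and 0% in Space and 5.51%, 11.1% and 0.625% in Ground, where the zeros allow up to 27.3% in Space 2 and 21.4% in Space 3. Ground 3 was no higher than Space 1, so the groups met. The difference was -5.54 percentage points, with an unadjusted p of 0.0282 and an adjusted p of 0.906 in the quasi-binomial test across all genes. The exact permutation test over samples (two-sided) gave p = 0.2, where 0.1 is the smallest that 3 against 3 samples allow. Without Ground 2 the difference was -2.86 percentage points. The 11.1% in Ground 2 consisted of 14 methylated of 126 read counts, with 0 to 2 methylated reads at each site, and the 5.51% in Ground 1 of 7 of 127, with 0 or 1 at each site.

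*H3c4* (ENSMUSG00000099583, 4 sites at chr13:23759940-23760001) had the highest level of the core histone genes. Its values were 0%, 4.44% and 14.7% in Space and 8.33%, 5.11% and 7.61% in Ground, and the 0 of Space 1 allows up to 5.66%. The Space samples thus spanned the Ground samples. In Space 3 each of the 4 sites had 5 methylated of 34 reads. *H3c6* had the most H3 sites, 10, with 2.5% ± 1.95 (SD, n = 3) in Space and 2.06% ± 2.34 (SD, n = 3) in Ground. *H3c8* (1 site, chr13:23719759) was one of the 2 genes in which the groups did not overlap, with 5.13%, 5.71% and 3.23% in Space and 2.33%, 0% and 3.03% in Ground. At 31 to 43 reads, these are 2, 2 and 1 methylated reads in Space and 1, 0 and 1 in Ground, and the 0 of Ground 2 allows up to 9.09%. Its adjusted p was 0.975 (quasi-binomial test).

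H4 genes had used sites in 6 of 12 members, counting *H4c4*, whose sites may not be H4 sequence, as given below. *H4c16* (ENSMUSG00000096010, 28 sites at chr6:136781043-136781260), an H4 gene outside the clusters, was the other gene without overlap. Its levels were 3.98%, 0.811% and 0.298% in Space and 0.286%, 0% and 0.255% in Ground, and the 0 of Ground 2 allows up to 16.7%. Space 1 stood apart, and the other samples lay close together, with Space 3 barely above Ground 1. The difference of 1.51 percentage points had an unadjusted p of 0.0312 and an adjusted p of 0.906 (quasi-binomial test), and the exact permutation test gave its smallest p of 0.1. Without Space 1 the difference was 0.37 percentage points.

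*H4c4* (ENSMUSG00000061482) was assigned 13 sites 4096 to 4165 bp downstream of the listed TSS. This is farther than the 1138 bases of its GENCODE M21 transcript. In order along the chromosome, the 13 sites are spaced exactly as 13 sites of the H2B gene *H2bc9* (chr13:23727260-23727329). They may therefore be H2B sequence given to *H4c4* only as the closest TSS, which was not tested. The levels of the 13 sites assigned to *H4c4* were 0%, 0.385% and 0.366% in Space and 5.13%, 0% and 0.855% in Ground, with limits of 15% for Space 1 and 25% for Ground 2. Ground 1 alone stood apart, and without it the difference of -1.74 percentage points was -0.18. *H4c11* (10 sites) had 9.58%, 0.714% and 0% in Space and 5.79%, 0% and 0.493% in Ground, where the zeros allow 15.8% in Space 3 and 25% in Ground 2. One sample of each group stood apart here, and the difference of 1.34 percentage points was -1.74 without Space 1. *H4c18* (12 sites) had 1.56%, 9.09% and 0.521% in Space and 2.8%, 0% and 0% in Ground, where the zeros allow 18.8% in Ground 2 and 27.3% in Ground 3. Its difference of 2.79 percentage points was 0.11 without Space 2.

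Among the 31 genes with a mean level under 10%, 19 of 186 values by gene and sample were at 5% or more. These values ranged from 2 methylated of 32 read counts in Space 3 of *H2bc12* to 31 of 619 in Space 2 of *H2bc1*. They were spread over 12 genes, in 7 of which a single sample was at this level. By sample, 4, 3 and 2 of the values were in Space samples 1 to 3, and 6, 2 and 2 in Ground samples 1 to 3. In *H4c18*, Space 2 had exactly 1 methylated read of 11 at each of the 12 sites, which the gene level counts as 12 of 132. In *H4c11*, Space 1 had 2 to 5 methylated reads of 24 at each of the 10 sites, and Ground 1 had 1 or 2 of 19. In *H4c4*, Ground 1 had 0 or 1 of 18 at each of the 13 sites. The table does not tell whether these are the same reads, but the sites had equal coverage within a sample. In 13 of the 34 genes all sites fell into 1 or 2 sets of equal coverage in every sample. These include 3 genes with 1 site and *H2bc18* with 2, where this could not be otherwise. Sites of a gene within such a set cannot be taken as separate measurements.

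**Figure D3:**
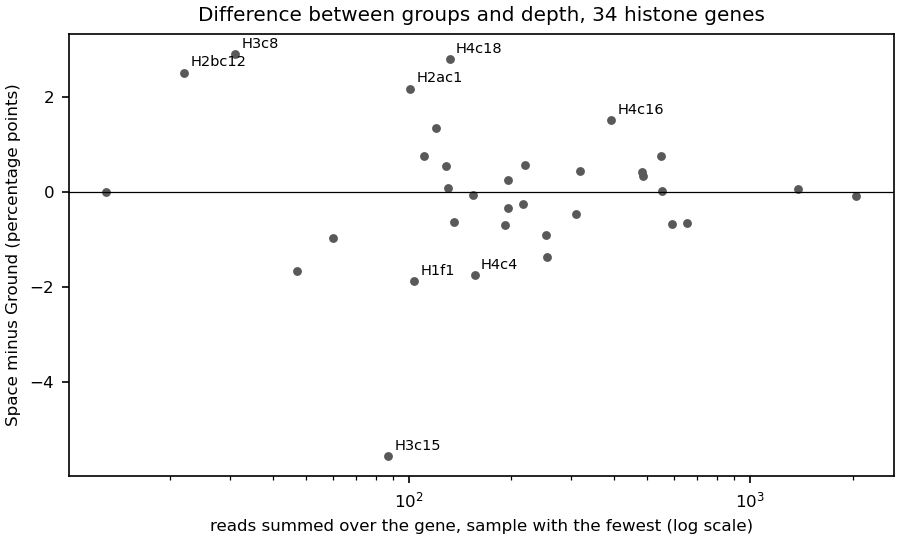
Difference of the group means (y axis, Space minus Ground, percentage points) against the reads summed over the gene in the sample with the fewest reads (x axis, log scale), 1 point for each of 34 histone genes. The points narrow towards 0 with more reads, and H3c15, at 87 reads, lies lowest at -5.54.

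Differences were smaller in the more deeply covered genes. Depth here is the read counts summed over the sites of a gene, where 1 read can count at several sites. In the 17 genes with 13 to 192 read counts in their shallowest sample, the median absolute difference was 1.34 percentage points and 9 genes differed by over 1 point. In the 17 genes with 196 to 2049 read counts, the median was 0.44 percentage points and 2 genes differed by over 1 point. The median absolute difference over all genes was 0.79 percentage points.

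Of the testis-specific genes, *H1f7*, *H1f9*, *H2ac1* and *H2bc1* had used sites, and *H1f6*, the H1t gene, was not analysed here. Together their levels were 11.5%, 11.3% and 9.5% in Space samples 1 to 3 and 12.1%, 11.1% and 8.3% in Ground samples 1 to 3. Over all their used sites, *H2bc1* and *H2ac1* were as low as the replication histones, whereas *H1f7* and *H1f9* were the genes of intermediate level. Their sites lay at different distances from the TSS, so gene and position cannot be told apart. At 266 to 373 bp *H1f7* had 3.67% in Space and 3.42% in Ground. At 3287 to 3498 bp *H2bc1* had 8% in Space and 4.21% in Ground. *H1f9* had no used site within 1000 bp. Its 9 sites, and the 4 of *H2bc1* at 3287 to 3498 bp, lay farther from the TSS than the GENCODE M21 transcripts are long. These transcripts have 864 bases in *H1f9* and 384 in *H2bc1*. Whether such sites belong to the genes was not tested.

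*H2bc1* (ENSMUSG00000050799) encodes TH2B and *H2ac1* (ENSMUSG00000060081) encodes TH2A, variants of H2B and H2A made in testis and oocyte. In mm39 their TSS lay 306 bp apart at chr13:24118139 and chr13:24118445, and transcription runs outwards. *H2bc1* had 18 sites 55 to 3498 bp downstream of its TSS, with 3.28%, 5.01% and 2.72% in Space and 6%, 1.51% and 2.26% in Ground. *H2ac1* had 6 sites 106 to 207 bp downstream, with 8.09%, 0% and 1.08% in Space and 0%, 1.6% and 1.05% in Ground, where the zeros allow 15% in Space 2 and 11.5% in Ground 1. Levels of 5% or more were seen in Space 2 and Ground 1 of *H2bc1* and in Space 1 of *H2ac1*, and the groups overlapped. Its difference of 2.17 percentage points was -0.34 without Space 1, and the adjusted p was 0.916 for *H2ac1* and 0.988 for *H2bc1* (quasi-binomial test). The sites of *H2bc1* fell into 2 places. The 14 sites at 55 to 265 bp had 2.15% ± 1.96 (SD, n = 3) in Space and 2.97% ± 2.59 (SD, n = 3) in Ground. The 4 sites at 3287 to 3498 bp had 9.87%, 6.71% and 7.43% in Space and 6.62%, 4.48% and 1.54% in Ground. These 4 sites were split off after their values were seen, and their difference was not tested. No used site of either gene lay between the TSS.

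*H1f7* (ENSMUSG00000048077) encodes H1T2, a linker histone of spermatids. It had 11 sites 266 to 774 bp downstream of the TSS at chr15:98155174 (mm39, minus strand), with 18 to 31 reads each. Its levels were 17.8%, 16.7% and 14.9% in Space and 17%, 18% and 15.1% in Ground. The groups overlapped, and the adjusted p was 1 (quasi-binomial test). The level was not even along the gene. The 6 sites at 266 to 373 bp had 3.67% ± 1.84 (SD, n = 3) in Space and 3.42% ± 0.564 (SD, n = 3) in Ground. Of the 5 sites at 662 to 774 bp, 4 were methylated in all samples. The site at 662 bp had 68.2%, 77.8% and 61.1% in Space and 73.9%, 86.4% and 52.2% in Ground. The site at 774 bp had a mean of 49.8% over the 6 samples and that at 686 bp 35.4%. The site at 710 bp had 18.2%, 27.8% and 27.8% in Space and 13%, 9.09% and 17.4% in Ground, without overlap, with an adjusted p of 0.951 in the quasi-binomial test of sites. The site at 674 bp, 12 bp from the most methylated one, had a mean of 0.758%, with a methylated read in Space 1 only. The cells are on a DBA background and mm39 is a C57BL/6 genome, and a C-to-T difference between the strains would be read as unmethylated, which was not tested here. All 5 sites had the same 18 to 23 reads per sample, and every sample showed the same order of low and high sites at 662, 674 and 686 bp.

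*H1f9* (ENSMUSG00000038994) encodes HILS1, a linker histone of spermatids. It had 9 sites on chromosome 11, 1 at 1822 bp upstream of the TSS and 8 at 3658 to 4298 bp downstream. Its levels were 29.4%, 30.2% and 23.4% in Space and 28.6%, 32% and 21.8% in Ground, with adjusted p = 1 (quasi-binomial test). The groups overlapped, and Space 3 and Ground 3 were the lowest. The upstream site (chr11:94856597) was almost fully methylated, with 96.2%, 100% and 100% in Space and 100%, 92% and 100% in Ground. The 7 sites at 3658 to 3886 bp were methylated in part, with 18.7% ± 2.79 (SD, n = 3) in Space and 19.1% ± 4.01 (SD, n = 3) in Ground. Within these 7, Space was higher by 9.54 percentage points at 3682 bp and lower by 11.8 at 3755 bp and 9.1 at 3766 bp, in each case without overlap, with adjusted p-values of 0.934 to 0.955 in the quasi-binomial test of sites. The site at 4298 bp had 46.7%, 58.8% and 33.3% in Space and 41.7%, 42.1% and 17.6% in Ground, the largest difference of a histone site at 12.5 percentage points, with overlap. No site within 1000 bp of the TSS was used in this gene, so its promoter was not measured.

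**Figure D4:**
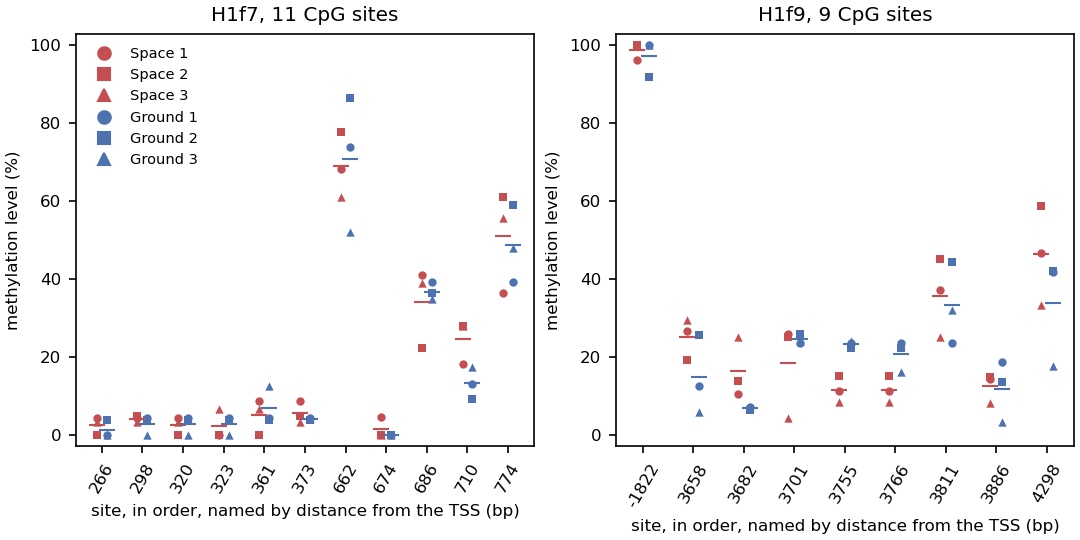
Methylation level (y axis, percent) of each used CpG site of H1f7 and H1f9 in each sample, with the sites in order along the x axis, named by distance from the TSS in bp and not drawn to scale, and group means as short bars. In H1f7 the sites up to 373 bp and the site at 674 bp are low and the others at 662 to 774 bp are higher, and in H1f9 the site at -1822 bp is near 100%, in both groups.

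*H1f8* (ENSMUSG00000042279) encodes the linker histone of the oocyte. Its only used site, 2709 bp downstream of the TSS at chr6:115924608, was methylated in all 13 to 38 reads of each of the 6 samples. Without variation it could not be tested, and its promoter was not measured either.

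Across all members, sites near the TSS were low. In 117 sites up to 1000 bp upstream the median level was 1.19% in histone genes and 1.55% in all genes, and 98.3% of the histone sites were under 5%, against 96.3% of all sites. In 279 sites up to 1000 bp downstream these shares were 95.7% and 97.4%. At 1000 to 5000 bp downstream, 75% of 52 histone sites and 76.8% of all sites were under 5%. The 13 histone sites in the last place that were not under 5% were those of *H1f8*, *H1f9* and *H2bc1*.

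**Figure D5:**
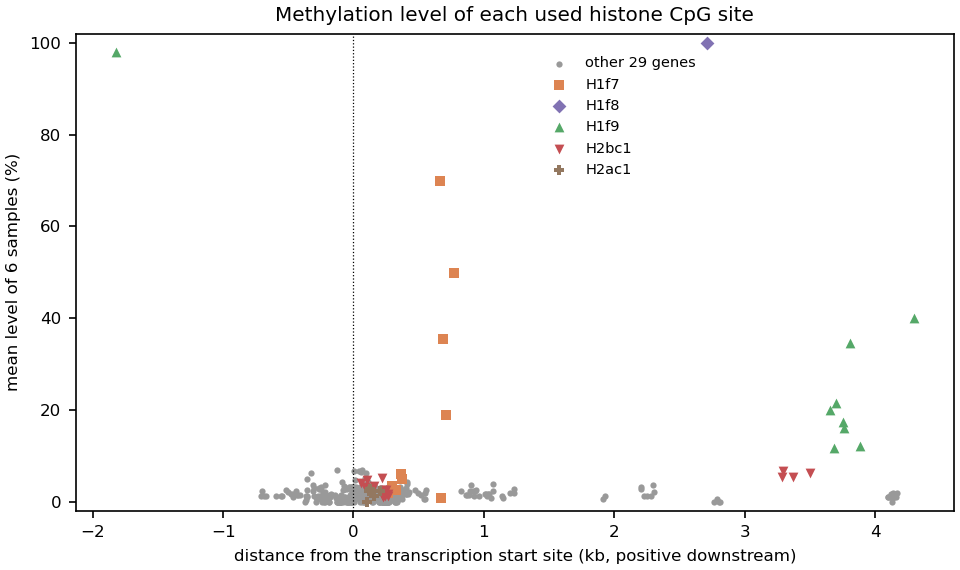
Mean methylation level of the 6 samples (y axis, percent) of each of 449 histone CpG sites against its distance from the TSS (x axis, kb), with the germline genes in colour and the other 29 genes in grey. The grey points stay under 10% at all distances, and the points above 10% are of H1f7, H1f8 and H1f9.

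A used site was missing in 25 of the 59 histone genes. Of genes with any site of the table within 5000 bp, 58.6% of 58 histone genes and 72% of 27358 other genes had a used site. All 10 H1 genes had one, against 5 of 11 H2A, 8 of 16 H2B, 5 of 10 H3 and 6 of 12 H4 genes. These counts follow the closest TSS, also for *H4c4*. *H2bc24* had no site of the table within 5000 bp, and 8 of the 25 had a site that all samples covered by 5 reads or more. The unused genes were *H2ac7*, *H2ac8*, *H2ac10*, *H2ac13*, *H2ac20*, *H2ac21*, *H2bc3*, *H2bc4*, *H2bc6*, *H2bc11*, *H2bc13*, *H2bc14*, *H2bc22*, *H2bc24*, *H3c3*, *H3c10*, *H3c11*, *H3c13*, *H3c14*, *H4c3*, *H4c6*, *H4c8*, *H4c9*, *H4c12* and *H4c17*. Core histone genes are near copies of each other. Stretches of 50 bases in the GENCODE M21 transcripts of all 59 histone genes were compared after bisulfite conversion. A median of 63.5% occurred in another gene for the 25 unused genes and 30.9% for the 34 used genes. The median was 0% for H1, 54.1% for H2A, 55.1% for H2B, 81.2% for H3 and 43.8% for H4 genes. All 10 H1 genes were among the used genes and lower the median of that group. Used and unused core genes alone were not compared. How the reads of such stretches were mapped is not given in the sources used here, so reads of core histone genes may be lost or assigned to a copy, and their part in the missing genes was not tested.

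Other genes of the histone pathway were low near their promoters as well. Of 10 replication-independent variants such as *H2ax* and *Cenpa*, 9 had sites within 5000 bp, with levels of 1.3% to 10.9%. An unadjusted p under 0.05 was found in 2 of them, *H2aj* and *H2ax*, against 5.4% of all genes, and an adjusted p under 0.05 in 0 (quasi-binomial test). *H2aj*, an H2A variant gene, had 4.37%, 3.96% and 0.429% in Space and 0.355%, 0.207% and 0.495% in Ground, which overlapped. *H2ax*, the gene of the H2A variant that is phosphorylated at DNA breaks, had 5.19%, 4.65% and 4.82% in Space and 4.02%, 3.77% and 3.83% in Ground, which did not overlap. The adjusted p was 0.906 for both. A plain average of the 9 gene levels, without regard to read number, was taken in each sample. It came to 3.57% ± 0.405 (SD, n = 3) in Space and 3.14% ± 0.15 (SD, n = 3) in Ground, without overlap. Within 1000 bp of the TSS only 8 of the genes had sites. Their average came to 1.8% ± 0.423 (SD, n = 3) in Space and 1.79% ± 0.283 (SD, n = 3) in Ground, with overlap. Of 18 genes for histone transcription, mRNA processing and chaperones, 16 had sites, and all 16 lay under 3% within 1000 bp of the TSS. Among them were *Npat*, the activator of replication histone genes, with 1.29%, and *Slbp*, the protein that binds the stem-loop of histone mRNA, with 1.36%. An adjusted p under 0.05 and an unadjusted p under 0.05 were found in 0 of these 16 genes (quasi-binomial test). Within 5000 bp the groups did not overlap in *Cabin1* (0.42% in Space, 1.22% in Ground), *Hira* (1.31%, 1.88%) and *Pou2f1* (1.5%, 2.27%). Every Space sample was lower in these, a pattern found in 3.79% of all genes, and the groups overlapped in the other regulators.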

How the data were processed

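The authors made RRBS libraries with the Zymo-Seq RRBS Library Kit and deposited a single table with 2268080 CpG sites. For every sample the authors' table holds the read coverage, deposited as a count, and the percent of those reads that were methylated, also as deposited. Each site has its closest TSS, gene and distance. The submitters' processing notes name Bismark 0.24.2, Trim Galore, methylKit and mm39, but roles, parameters, the treatment of both strands and the removal of duplicated reads are not given in the sources used here. Each of these could change coverage or, at near copies of a gene, assign reads elsewhere.

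Coverage multiplied by the percent gave the methylated reads, which were whole numbers to within 0.000266 reads. Samples were grouped by their titles. Reads were summed per gene over sites that every sample covered by 10 reads or more, up to 5000 bp from the TSS. Genes, and sites with mean levels of 5% to 95%, were compared by quasi-binomial regression on methylated against total reads. Its dispersion (Pearson) was shrunk by the squeezeVar function (limma 3.58.1, R 4.3.3), and p-values were adjusted after Benjamini-Hochberg over all genes or all sites, at a threshold of 0.05. The test was tested on simulated data. An earlier form, in which groups at 0% or 100% did not count towards the residual degrees of freedom, made more false calls there and was discarded after it had been run once on the real table. Of 3 changes tried on simulated data only, the one used was chosen by its false calls there. A slight excess of small p-values remained in the simulation. For single values, the exact permutation test was used (two-sided). Values of types, clusters and parts of genes were not tested. A level of 0 is given with the level that 3 methylated reads would make at the most covered site of the gene. Tables and figures were made with data.table (version 1.17.8), Python 3.11.15, pandas 2.3.3, scipy 1.17.1 and matplotlib 3.10.9.

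Alternatives were a minimum of 5 or 20 reads, sites within 1000 bp, at least 3 sites per gene, edgeR 4.0.16 (quasi-likelihood, methylated and unmethylated counts), the replicate number as a block, and each sample left out. The members, lists and tests were chosen with earlier results of these data known. Genes named were the testis-specific and oocyte genes, those with a mean level of 10% or more, the members with the most sites and the highest level in each type, the 3 with the smallest unadjusted p and the 2 with the largest difference in each direction. The sequences shown, the motifs, the count of sites without overlap and the shared stretches were chosen after values were seen. So were the split by depth, the parts of genes and the values without H3c15. H2ac19 as the lowest H2A gene, H2bc24, H2aj, Cabin1, Hira and Pou2f1 were also named after values were seen. H1f0 was added for its depth. RefSeq promoters (GRCm38.p6) were matched by symbol for 50 of 59 genes. Exon and intron positions were not used here, as the annotation at hand is of another build.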

Additional observations from a re-analysis of the deposited data

How the results depend on the processing

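With 3 samples per group and 10 to 88 reads per histone site, small differences at single genes were not detectable. No histone gene and no histone site had an adjusted p under 0.05 with a minimum of 5 or 20 reads, the replicate block, or any sample left out, nor did any histone gene with sites within 1000 bp, at least 3 sites per gene, or edgeR. Sites were not tested under these last 3. Histone genes with an unadjusted p under 0.05 numbered 2 as reported, 4 with a minimum of 5 reads, 0 with a minimum of 20 reads, and 0 to 2 with a sample left out. Sites of all genes with an adjusted p under 0.05 numbered 0 as reported and 0 to 5 with a sample left out, with 5 without Ground 1, 3 without Space 3 and 1 without Space 2. With a minimum of 5 reads, Space exceeded Ground by over 20 percentage points at 1 histone site and fell short by as much at 2.

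The difference of H3 genes was -1.03 percentage points as reported and -0.085 with a minimum of 5 reads. That of H4 genes was 0.23 as reported and -0.96 with a minimum of 20 reads. Without H1f7, H1f8 and H1f9, a choice made after seeing the data, the difference of all histone genes was -0.04 instead of -0.17. With a sample left out, H3 ranged from -1.41 to -0.37, with the latter without Space 1. H4 turned to -0.41 without Space 1 and -0.26 without Ground 2, H1 from -0.21 to 0.084 without Ground 2, and the testis-specific genes from 0.29 to -0.8 without Ground 3 and -0.088 without Space 1. H2A ranged from 0.17 without Space 1 to 1.19 without Space 2, H2B from -0.77 without Ground 2 to -0.032 without Ground 3, and all histone genes from -0.34 without Space 1 to -0.034 without Ground 1. The causes of these changes were not tested.

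Of 206 differences of 18 named genes under the alternatives, 183 kept their direction and 23 reversed, 20 of them with a sample left out. None of the differences reached an adjusted p under 0.05. The other reversals were H1f10 with a minimum of 5 reads (-0.033), H1f7 with a minimum of 20 reads (0.25) and H2bc1 within 1000 bp (-0.82). With a sample left out, the differences ranged from -0.18 to 0.25 in H1f10, -1.08 to 0.54 in H1f7, -2.57 to 2.51 in H1f9, -0.34 to 3.7 in H2ac1, -0.22 to 1.12 in H2ac18, -0.46 to 1.79 in H2bc1, -1.4 to 0.62 in H2bc27, -4.8 to 2.56 in H3c4, -0.59 to 1.77 in H3c6 and -1.74 to 3.19 in H4c11.

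The replicate numbers come from the titles, and no label states that they pair the samples. The deposited descriptions of Space and Ground samples of the same number carry consecutive numbers. Deviations from the group means correlated by 0.0438, 0.022 and 0.00988 between samples of the same number. Between Space and Ground samples of unlike number they correlated by -0.0367 to 0.0146. Whether the samples are paired was not tested. With the replicate number as a block, 0 histone genes had an adjusted p under 0.05, the smallest being 0.529, and 2 had an unadjusted p under 0.05.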
